A study of Mus musculus with 9 samples.

Results

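The genes described here are Mt1, Mt2, Mtf1 and Slc30a1, 4 of the 54532 genes listed for b.end3 cells, picked by gene name as the metallothioneins and the zinc response. The rule uses no measured value, but the genes were proposed with earlier results of these data known. RNA sequencing was performed on 9 libraries, 3 in each of 3 groups. Ctrl cells were controls without photodynamic treatment (PDT). Ep1 cells received PDT at a light dose of 10 J/cm2, and Ep2 cells received PDT at 20 J/cm2. The treated monolayers were first incubated for 90 min with 300 µg/mL porfimer sodium, a porphyrin photosensitizer that yields reactive oxygen species under red light, and were then exposed to a 635 nm laser at 100 mW/cm2. All groups are 1 cell line, b.end3, labelled as brain microvessel endothelial cells of strain C57BL/6, and the sources used here give neither the time from light to lysis nor whether Ctrl cells saw the photosensitizer in the dark. The culture protocol calls the cells rat, while the organism label, the genome and all gene identifiers are mouse. Nothing states that the 3 libraries of a group came from separate cultures, so the p-values measure only the spread between these libraries.

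Metallothioneins are small cysteine-rich proteins that bind zinc and copper, and thiols in them also react with oxidants. When free zinc rises, by supply or by release from oxidized proteins, the zinc-finger factor MTF1 binds metal response elements and activates transcription of Mt1, Mt2 and Slc30a1. Slc30a1 encodes ZnT1, the zinc exporter of the plasma membrane, so the same factor drives both the binding and the export of the metal.

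The sequence just upstream of the annotated start is shown for the 3 genes that MTF1 is known to activate, because the results turn on these genes. Each run is the 250 bases before the RefSeq start on GRCm38.p6, plus strand, 5′ to 3′, and capitals mark matches to the metal response element, searched as TGCACNC or TGCGCNC on both strands. The Mt1 run is chr8:94178839-94179088, the Mt2 run is chr8:94172368-94172617 and the Slc30a1 run is chr1:191906531-191906780.
Mt1: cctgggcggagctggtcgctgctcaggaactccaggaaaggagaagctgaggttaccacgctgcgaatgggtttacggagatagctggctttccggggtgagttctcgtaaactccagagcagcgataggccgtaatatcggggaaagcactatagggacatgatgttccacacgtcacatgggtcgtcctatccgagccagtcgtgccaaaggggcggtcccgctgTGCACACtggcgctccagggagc
Mt2: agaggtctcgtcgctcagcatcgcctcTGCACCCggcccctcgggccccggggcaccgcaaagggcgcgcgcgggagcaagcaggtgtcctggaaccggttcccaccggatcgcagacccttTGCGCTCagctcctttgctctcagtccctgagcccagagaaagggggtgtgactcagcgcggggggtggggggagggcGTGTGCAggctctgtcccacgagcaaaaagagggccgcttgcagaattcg
Slc30a1: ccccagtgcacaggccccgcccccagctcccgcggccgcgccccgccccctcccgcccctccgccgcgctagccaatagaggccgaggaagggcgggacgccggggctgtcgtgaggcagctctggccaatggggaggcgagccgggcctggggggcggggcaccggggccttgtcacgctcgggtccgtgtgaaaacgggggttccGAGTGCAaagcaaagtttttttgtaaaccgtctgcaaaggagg
Mt2 held 3 matches before its start, of which the one nearest to it is on the minus strand. Mt1 held 1 on the plus strand and Slc30a1 held 1 on the minus strand. In the full window of 300 bases, which runs 50 bases past the start, Mt2 held 4 matches, Mt1 held 3, Slc30a1 held 2 and Mtf1, the gene of the factor itself, held 0. Of 32851 mouse promoters of that length, 25.7% held at least 1 match, 7.11% at least 2, 1.97% at least 3 and 0.517% at least 4. The core of the antioxidant response element, searched as TGACNNNGC on both strands, occurred once in the Mt2 window, 79 to 71 bases before the start, and once in the Slc30a1 window, 82 to 74 bases before the start. It was found in 12.4% of all promoters, and these letters were not in the Mt1 and Mtf1 windows. No antioxidant match overlapped a metal response match. In the Mt1 window 2 of the 3 metal response matches lie after the start, at bases 3 to 9 and 21 to 27. They are therefore not in the printed run. Mt1 has 4 annotated transcripts in GENCODE M39, of which 3 share the first start and 1 starts 159 bases later, and 4 metal response and 1 antioxidant match lie between these starts on GRCm39, which may include matches of the window above. A match describes letters in a window and is no measurement of binding. Mt1, Mt2 and Slc30a1 were shown as known MTF1 targets, so their counts beside the shares of all promoters are no new finding.

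Levels are given in FPKM, fragments per length of gene and library size, so that genes can be compared per length. The libraries held 16240688 to 19509225 fragments on genes, and the mitochondrial share of fragments was 1.90% to 1.99% in Ctrl, 2.0% to 2.08% in Ep1 and 2.04% to 2.49% in Ep2. Each of the 4 genes was above 1 FPKM in all 9 libraries, so all 4 were among the 11727 genes tested. Differences are log2 fold changes on the log2(FPKM + 1) scale, which understates the change of low genes, from 1 limma model of all libraries with Benjamini-Hochberg adjustment over the tested genes and a call at an adjusted p below 0.05. At this threshold 11.3% of tested genes were called between Ep1 and Ctrl (6.32% higher, 4.97% lower), 53.2% between Ep2 and Ctrl (23.9% higher, 29.3% lower) and 44% between Ep2 and Ep1 (18.8% higher, 25.2% lower). Both comparisons with Ctrl share the same 3 Ctrl libraries.

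The endothelial label was checked against 15 endothelial markers. Of these, 12 had a mean under 1 FPKM in every group, with Erg, Emcn and Sox17 listed at 0 in all libraries. Flt1, Egfl7 and Eng passed the filter, and the 15 markers summed to 11.4 to 11.9 FPKM in Ctrl, 11.4 to 13.2 in Ep1 and 14.4 to 15.5 in Ep2. The 8 epithelial markers summed to 1029 to 1081 FPKM in Ctrl, 937 to 1041 in Ep1 and 1155 to 1372 in Ep2. Nearly all of this came from the keratins Krt8, Krt18 and Krt19. Of the 8, 4 had a mean under 1 FPKM in every group, with Krt5 and Krt7 listed at 0. The 9 fibroblast and mural markers summed to 6.73 to 9.32 FPKM over all libraries, mostly Col1a1, and the astrocyte and myeloid markers stayed under 0.5 FPKM in sum. Most of the 15 endothelial markers were therefore absent or low, with Flt1, Egfl7 and Eng above the filter, and the cells are called b.end3 here.

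**Figure D1:**
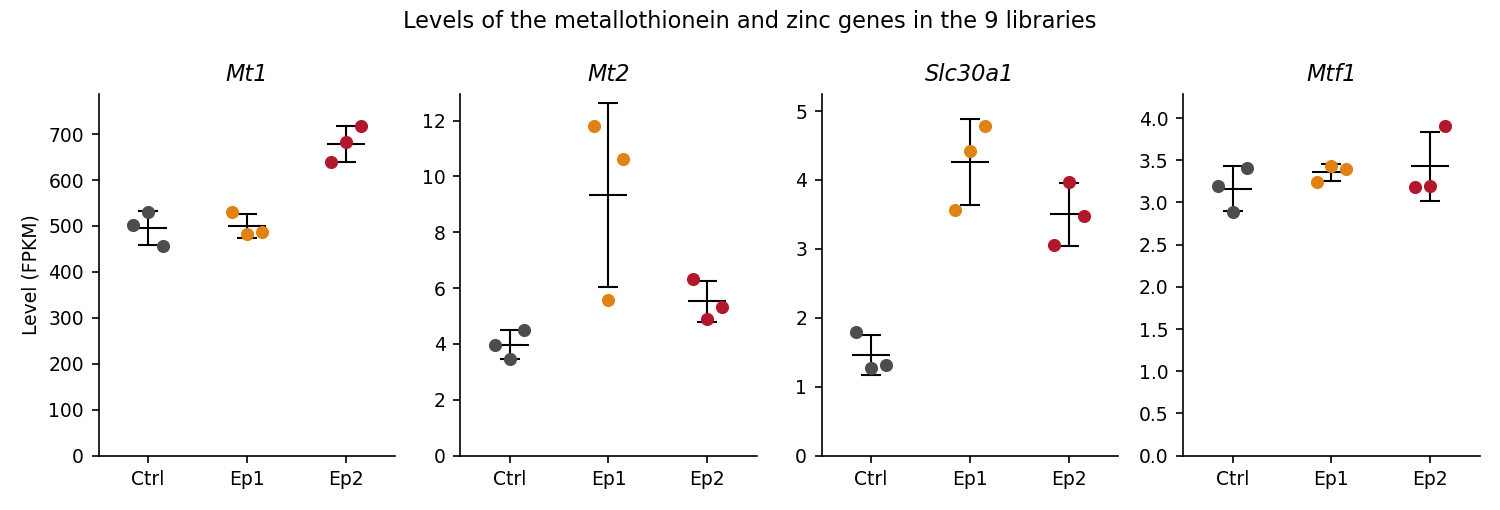
Level in FPKM (y axis, from 0, a separate scale in each panel) of Mt1, Mt2, Slc30a1 and Mtf1 in Ctrl, Ep1 and Ep2. Points are single libraries and bars the mean and SD of 3. Mt1 stands apart in Ep2 at 638 to 717 FPKM, Slc30a1 in both treated groups at 3.06 FPKM or more against 1.80 or less in Ctrl, Mt2 is high in 2 of 3 Ep1 libraries, and Mtf1 overlaps throughout.

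After PDT, 2 of the 4 genes rose at each dose, Slc30a1 and Mt2 in Ep1, and Slc30a1 and Mt1 in Ep2. At 10 J/cm2 the exporter gene Slc30a1 rose by 1.09 on the log2 scale and Mt2 by 1.0, while Mt1 differed from Ctrl by 0.01. The higher dose of 20 J/cm2 gave a Slc30a1 level higher by 0.87 and Mt1 by 0.45, while Mt2 did not pass the test. Mtf1 passed in neither comparison. The counts of 2 of 4 stand against a background of 6.32% higher calls in Ep1 and 23.9% in Ep2, and the libraries of 2 of 4 genes in Ep1 and of 3 of 4 in Ep2 lay wholly above Ctrl, against 20.8% and 27% of tested genes. Between the doses Mt1 alone was called, as higher in Ep2 against a background of 18.8%, and its Ep2 libraries lay wholly above Ep1, against 24.1% of tested genes.

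Mt1 (ENSMUSG00000031765, chr8:94179082-94180327, plus strand) encodes a metallothionein found in most tissues. Its level was 501, 531 and 457 FPKM in the Ctrl libraries, 531, 484 and 488 in Ep1, and 638, 682 and 717 in Ep2. The Ep2 libraries lay above all 6 others, and the Ep1 libraries lay within or at the edge of the Ctrl range. Mt1 stood at place 78 of the 54532 genes by mean Ctrl level, at 496 ± 37.3 FPKM (SD, n = 3), and each value rests on 10106 to 15895 fragments. The mean was 501 ± 26.2 in Ep1 and 679 ± 39.3 in Ep2 (SD, n = 3), 1.37 times Ctrl. The log2 fold change at 20 J/cm2 was 0.45 (limma, SE 0.066, 95% interval 0.30 to 0.60, adjusted p = 0.000383), which put Mt1 at place 934 of 11727 from the top. In Ep1 it was 0.01 (limma, 95% interval -0.13 to 0.16, adjusted p = 0.91). The difference between the doses was itself past the threshold, at 0.44 (limma, 95% interval 0.29 to 0.59, adjusted p = 0.000685). The Mt1 call at 20 J/cm2 held without each of the 9 libraries in turn (0.39 to 0.50). In every Ep2 library the epithelial and the endothelial marker sums given above were also higher than in any Ctrl or Ep1 library. The mitochondrial share was highest in Ep2 replicates 2 and 3 (2.27% and 2.49%), while Ep2 replicate 1 (2.04%) lay within the Ep1 range. Their part in the result was not tested. As these are bulk samples, a change in the share of cells of a type and a change in RNA per cell cannot be told apart.

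Mt2 (ENSMUSG00000031762, chr8:94172664-94173568, plus strand), the second broadly expressed metallothionein, lies just upstream of Mt1. Its level was 3.97, 3.48 and 4.49 FPKM in Ctrl, 11.8, 5.58 and 10.6 in Ep1, and 6.33, 4.91 and 5.33 in Ep2. All treated libraries were above all Ctrl libraries, and within Ep1 the second library was near the Ep2 values while the other two stood clear of them. The means of Ctrl, Ep1 and Ep2 were 3.98 ± 0.505, 9.33 ± 3.30 and 5.52 ± 0.733 FPKM (SD, n = 3), so that the spread within Ep1 was 35.4% of its mean. Only 40 to 49 fragments lay on Mt2 in the Ctrl libraries, 128, 55 and 116 in Ep1, and 52 to 71 in Ep2. The log2 fold change at 10 J/cm2 was 1.0 (limma, SE 0.23, 95% interval 0.46 to 1.54, adjusted p = 0.035), 2.35 times Ctrl in mean FPKM and place 33 of 11727 from the top. In Ep2 the value was 0.39 (limma, 95% interval -0.15 to 0.93, adjusted p = 0.198), and between the doses it was -0.61 (limma, 95% interval -1.15 to -0.07, adjusted p = 0.066), neither past the threshold.

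Without each library in turn, the Mt2 log2 fold change at 10 J/cm2 stayed between 0.82 and 1.3. Calls over all genes at this dose, 1324 with all libraries, were 392, 192 and 1038 without Ctrl replicates 1, 2 and 3. They were 379, 844 and 199 without Ep1 replicates 1, 2 and 3, and 2192, 957 and 1625 without Ep2 replicates 1, 2 and 3. Their part in the Mt2 results was not tested. The Mt2 call itself was not stable. It was lost without any 1 Ctrl library (limma adjusted p = 0.0979, 0.126 and 0.0522 without replicates 1, 2 and 3), without Ep1 replicate 1 (0.0952) or 3 (0.114), and without Ep2 replicate 2 (0.0531) or 3 (0.0509), which enter through the shared spread and the set of genes tested. It held without Ep1 replicate 2 (log2 fold change 1.3, limma adjusted p = 0.00328) and without Ep2 replicate 1 (0.041). Without Ep1 replicate 2 the Mt2 value at 20 J/cm2 also passed (0.39, limma adjusted p = 0.0116), as did its difference between the doses (-0.91, limma adjusted p = 0.000676).

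**Figure D2:**
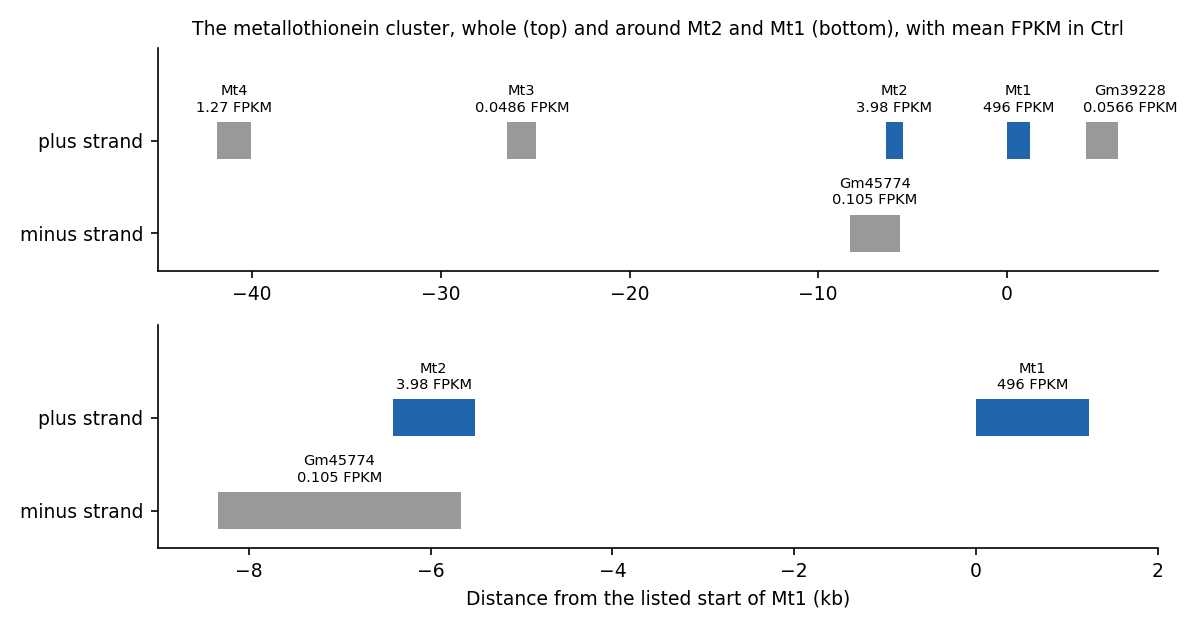
Genes listed around Mt1 by distance from its start in kb (x axis) and by strand (y axis), over the whole cluster (top) and around Mt2 and Mt1 (bottom), each with its mean Ctrl level. Blue bars are Mt2 at 3.98 FPKM and Mt1 at 496 FPKM, and grey bars are other genes. The minus-strand gene Gm45774 covers most of Mt2.

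The level of Mt2 relative to Mt1 is uncertain, because 749 of its 905 bases (82.8%) are also covered by Gm45774 on the opposite strand and 156 are free. The sources used here do not say whether counting used strand, and Gm45774 itself was listed at group means of 0.105, 0.141 and 0.218 FPKM in Ctrl, Ep1 and Ep2. How fragments in the shared bases were assigned, and whether this affects the fold changes of Mt2, was not tested. Mt1 has no overlapping gene in the table, but the length behind its FPKM, 1246 bases, is its whole span, while its canonical transcript in GENCODE M39 has 762 bases in 2 exons. For Mt2 that length was 588 bases, against 748 bases in 3 exons for its canonical transcript. The canonical transcripts of the paralogs share no exact run longer than 20 bases, against reads of 150 bases. Summed over both genes, the metallothionein level was 461 to 534 FPKM in Ctrl, 489 to 543 in Ep1 and 645 to 722 in Ep2, so the sum followed Mt1 and was highest in the Ep2 libraries. The ratio of Mt1 to Mt2 was 126, 153 and 102 in Ctrl, 45, 86.7 and 45.9 in Ep1, and 101, 139 and 135 in Ep2. Every Ep1 ratio was below every other ratio, and the ratio differed among the groups (exact permutation test of the between-group sum of squares over 1680 assignments of the libraries, p = 0.0321, the smallest possible being 0.00357). Mt1 differed from Ctrl by only 0.01 in Ep1, so the ratio there repeats the change of Mt2 and is no separate result. The mean log2 ratio differed from Ctrl by -1.15 in Ep1 and by -0.02 in Ep2. This call was lost without Ctrl replicate 1 (exact permutation p = 0.0679), without Ctrl replicate 2 or 3 (p = 0.0571 for each in the exact permutation test) and without any 1 Ep2 library (exact permutation p = 0.0607 for each), and it held without any 1 Ep1 library.

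The other metallothioneins of the cluster were low. Mt4, at 1.27 ± 0.614 FPKM in Ctrl (SD, n = 3), had log2 fold changes of -0.09 and -0.04 (limma adjusted p = 0.859 and 0.902). Mt3, the brain form, averaged 0.0486, 0.0338 and 0.167 FPKM in Ctrl, Ep1 and Ep2 and was under the filter. Of the other genes that start within 100 kb of Mt1, Nup93, a nuclear pore gene on the far side, had 41.4, 43.7 and 29.4 FPKM on average in Ctrl, Ep1 and Ep2, so its mean was lowest in the group where Mt1 was highest. Rpl10-ps5, a pseudogene inside the span of Nup93, was between 4.13 and 12.5 FPKM, and Gm39228 and Gm45804 were at 0.198 FPKM or less in every library.

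Slc30a1 (ENSMUSG00000037434, chr1:191906767-191913247, plus strand) encodes the exporter ZnT1 and had the lowest Ctrl level of the 4 genes. It was at 1.80, 1.28 and 1.31 FPKM in Ctrl, 3.56, 4.42 and 4.78 in Ep1, and 3.06, 3.97 and 3.48 in Ep2. Every treated library was above every Ctrl library, and the 2 treated groups overlapped. The means were 1.46 ± 0.292, 4.25 ± 0.624 and 3.51 ± 0.457 FPKM (SD, n = 3), 2.91 times Ctrl at 10 J/cm2 and 2.39 times at 20 J/cm2, from 128 to 182 fragments in Ctrl and 303 to 465 in the treated libraries. The log2 fold change was 1.09 at 10 J/cm2 (limma, SE 0.12, 95% interval 0.83 to 1.36, adjusted p = 0.00464), place 25 of 11727 by size and 11 by p. At 20 J/cm2 it was 0.87 (limma, 95% interval 0.61 to 1.14, adjusted p = 0.000237), place 105 by size. The difference between the doses, -0.22, did not pass (limma, 95% interval -0.48 to 0.04, adjusted p = 0.157). Both calls against Ctrl held without each library in turn (1.02 to 1.19 and 0.80 to 0.97). On recovered fragments, with no pseudocount of 1 to shrink so low a gene, voom gave 1.52 and 1.28. An antisense gene, 1700034H15Rik, overlaps 11.7% of the span.

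Mtf1 (ENSMUSG00000028890, chr4:124802104-124849800, plus strand) encodes the zinc-sensing factor. Its level was 3.20, 2.89 and 3.41 FPKM in Ctrl, 3.24, 3.43 and 3.4 in Ep1, and 3.19, 3.19 and 3.90 in Ep2. The groups overlapped in every comparison, and the third Ep2 library was the highest of all. The means were 3.16 ± 0.263, 3.36 ± 0.103 and 3.43 ± 0.411 FPKM (SD, n = 3) from 503 to 577 fragments. The log2 fold change was 0.07 at 10 J/cm2 (limma, 95% interval -0.11 to 0.24, adjusted p = 0.601) and 0.09 at 20 J/cm2 (limma, 95% interval -0.09 to 0.26, adjusted p = 0.376). Between the doses it was 0.02 (limma, adjusted p = 0.865). These intervals bound the transcript of the factor and say nothing of its protein or its binding.

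In order of mean Ctrl level, with the level of Mt2 uncertain for the overlap given above, the genes stood Mt1, Mt2, Mtf1 and Slc30a1. Mt2 at 3.48 to 4.49 FPKM and Mtf1 at 2.89 to 3.41 were the closest neighbours and did not overlap, and Slc30a1 at 1.28 to 1.80 was below both. In Ep1 the order of Mtf1 and Slc30a1 was the other way round, with Slc30a1 at 3.56 to 4.78 and Mtf1 at 3.24 to 3.43, and in Ep2 these genes overlapped.

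**Figure D3:**
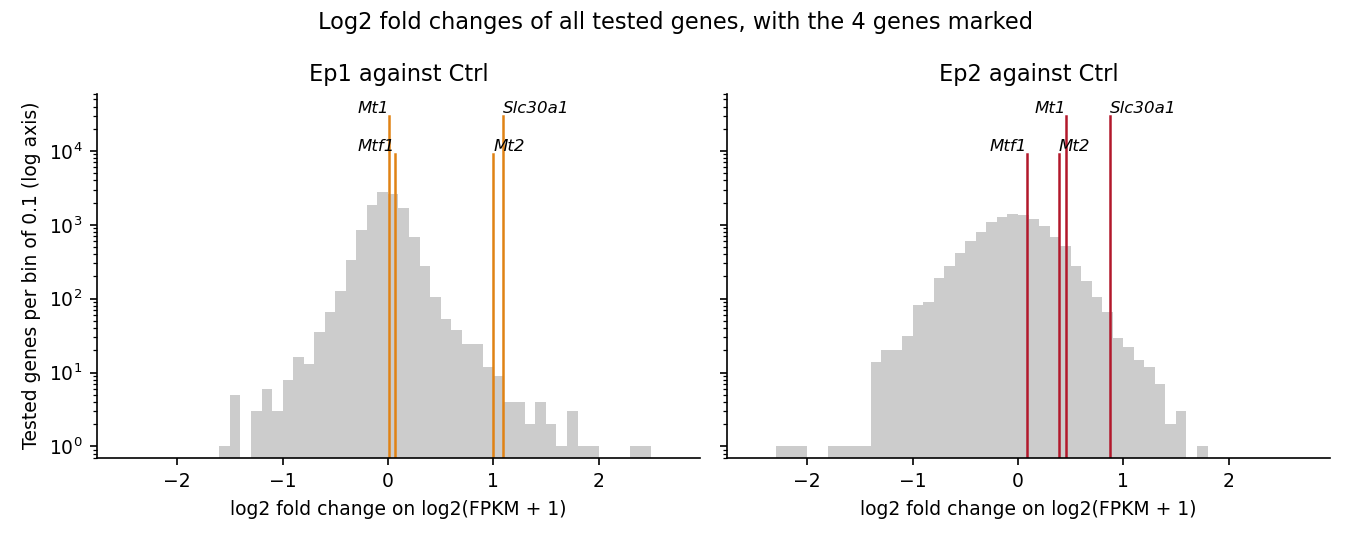
Number of tested genes per bin of 0.1 (y axis, log scale) against the log2 fold change on log2(FPKM + 1) (x axis), for Ep1 against Ctrl and Ep2 against Ctrl, with the 4 genes as coloured lines whose height has no meaning. Slc30a1 (1.09) and Mt2 (1.0) lie in the right tail in Ep1, and in the broader Ep2 distribution Slc30a1 (0.87) lies furthest out while Mt1 (0.45) and Mt2 (0.39) lie on the shoulder.

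Under the joint rule of an adjusted p below 0.05 and a log2 fold change above 0.6, which 0.571% of tested genes met as higher in Ep1, Slc30a1 and Mt2 qualified at 10 J/cm2. In Ep2, where 3.3% of tested genes met it, Slc30a1 qualified and Mt1 did not. Between the doses 1.94% of tested genes met it as higher, and none of the 4 did. The median log2 fold change of all tested genes was -0.01 in Ep1 and -0.03 in Ep2.

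The rest of the zinc transport system was read from the ZnT exporters, which lower cytosolic zinc by moving it out of the cell or into organelles, and the ZIP importers, which do the reverse. Of the 10 other exporters, 5 passed the filter, and of the 14 importers 10 did. Limma at 10 J/cm2 called 0 of these 15 transporters against a background of 11.3%, with 1 higher and 4 lower at an unadjusted p below 0.05, while voom on recovered fragments called 1 of 17, Slc39a10, as lower. The count was 3 without Ep2 replicate 1 (Slc30a4, Slc39a6 and Slc39a10) and 1 without Ep2 replicate 3 (Slc39a10). Slc30a1 was thus the single ZnT or ZIP gene past the threshold in the fit of all libraries at this dose. In Ep2, 10 of 15 were called, 5 higher and 5 lower, against a background of 53.2%, and their median log2 fold change was -0.00458 against -0.03 over all genes.

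Among the exporters in Ep2, Slc30a9, a mitochondrial zinc transporter, rose from 4.06 ± 0.221 to 6.03 ± 0.143 FPKM (SD, n = 3; log2 fold change 0.48, limma adjusted p = 0.000153). Slc30a4, which loads vesicles with zinc, was the most abundant exporter and rose from 72.8 ± 1.55 to 90.0 ± 13.1 FPKM (0.29, limma adjusted p = 0.0214). Slc30a5, which supplies zinc to enzymes of the secretory pathway, fell by 0.12 (limma adjusted p = 0.0316). Slc30a6, the partner of Slc30a5, and Slc30a7 had values of -0.06 and 0.02 and did not pass (limma adjusted p = 0.495 and 0.802).

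Among the importers in Ep2, Slc39a6 rose by 0.33, Slc39a4 by 0.37 and Slc39a13 by 0.20 (limma adjusted p = 8.98e-05, 0.0102 and 0.00334). Slc39a7, which releases zinc from the endoplasmic reticulum, fell by 0.65 from 5.93 ± 0.889 to 3.47 ± 0.939 FPKM (SD, n = 3; limma adjusted p = 0.00637). Slc39a11 fell by 0.53, Slc39a10 by 0.49 and Slc39a3 by 0.17 (limma adjusted p = 0.0159, 0.00163 and 0.0351). Slc39a1, Slc39a9 and Slc39a14 did not pass, with values of 0.13, -0.02 and -0.0046 (limma adjusted p = 0.0971, 0.822 and 0.935).

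**Figure D4:**
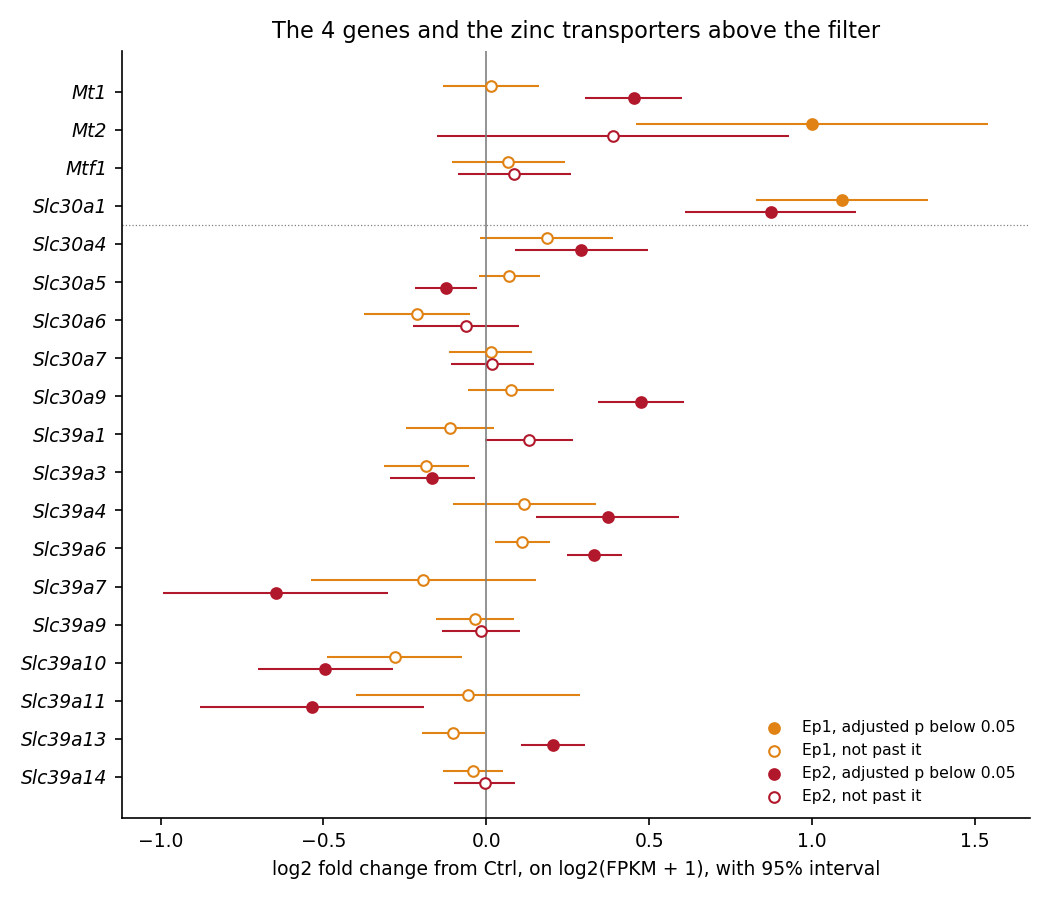
Log2 fold change from Ctrl on log2(FPKM + 1) with its 95% interval (x axis) for the 4 genes, above the dotted line, and the 15 other zinc transporters that passed the filter (y axis), in Ep1 (orange) and Ep2 (red). Filled points have an adjusted p below 0.05. In Ep1 the filled points are Mt2 and Slc30a1, and in Ep2 the transporters spread to both sides of 0.

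Slc39a10 is a plasma membrane importer that MTF1 is known to repress, the opposite of its action on Slc30a1. Its level was 15.4, 17.5 and 17.1 FPKM in Ctrl, 13.8, 12.9 and 13.8 in Ep1, and 9.78, 11.8 and 13.2 in Ep2. Both treated groups lay below Ctrl and overlapped each other. The log2 fold change was -0.28 at 10 J/cm2 (limma adjusted p = 0.0784) and -0.49 at 20 J/cm2 (limma adjusted p = 0.00163). Its difference between the doses, -0.21, did not pass (limma adjusted p = 0.0903).

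Slc39a10 belongs to a list of 6 further genes known as MTF1 targets, of which 4 passed the filter, while the iron exporter gene Slc40a1 and the growth factor gene Pgf did not. In Ep1, 1 of these 4 was called, Gclc, the catalytic subunit of glutathione synthesis, against 11.3% of all genes, and the median log2 fold change was -0.04 against -0.01 over all genes. In Ep2, 3 of 4 were called, Gclc and Csrp1 higher and Slc39a10 lower, against 53.2% of all genes. The median there was 0.25 against -0.03. Both medians include Slc39a10, which MTF1 represses, so they do not measure a shared direction of the targets. Gclc averaged 20.9 ± 0.888, 27.5 ± 0.502 and 34.3 ± 1.1 FPKM (SD, n = 3) in Ctrl, Ep1 and Ep2, with log2 fold changes of 0.38 and 0.69 (limma adjusted p = 0.00521 and 5.73e-06). Csrp1, which encodes a LIM-domain protein of the actin cytoskeleton, was 62.9, 63.5 and 62.9 FPKM in Ctrl, 69.6, 60.9 and 64.8 in Ep1, and 124, 117 and 103 in Ep2. Its Ep2 libraries stood clear of all others, as those of Mt1 did, with a log2 fold change of 0.85 from Ctrl (limma adjusted p = 1.62e-05). Selenow did not pass at either dose (-0.13 and -0.20, limma adjusted p = 0.3 and 0.0566).

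Metals and oxidants also induce genes through other factors, and 9 of these were listed, of which 8 passed the filter. At 10 J/cm2 4 rose and 4 did not pass, with a median log2 fold change of 0.34 against -0.01 over all genes, of which 11.3% were called. In Ep2, 6 rose and 1 fell, with a median of 0.56 against -0.03 and 53.2% of all genes called. Hmox1, the heme oxygenase gene that metals and porphyrins induce, was 21.6, 21.8 and 20.4 FPKM in Ctrl, 59.0, 51.9 and 49.4 in Ep1, and 86.0, 52.4 and 54.7 in Ep2. All treated libraries were above Ctrl, and the first Ep2 library was the highest. Its log2 fold changes were 1.29 and 1.52 (limma adjusted p = 0.00823 and 0.00018), both larger in size than those of Slc30a1, a difference between genes that was not tested. Slc7a11, the cystine importer gene, rose by 0.96 and 1.44 (limma adjusted p = 0.00121 and 2.17e-06), and Gclm, the partner of Gclc, rose by 0.62 and 0.71 (limma adjusted p = 0.0054 and 6.97e-05). Srxn1, a sulfiredoxin gene, rose by 0.38 and 1.06 (limma adjusted p = 0.0436 and 4.14e-05). Dnajb1, a heat shock gene named here because it was the 1 that fell, had -0.25 in Ep2 (limma adjusted p = 0.0163).

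**Figure D5:**
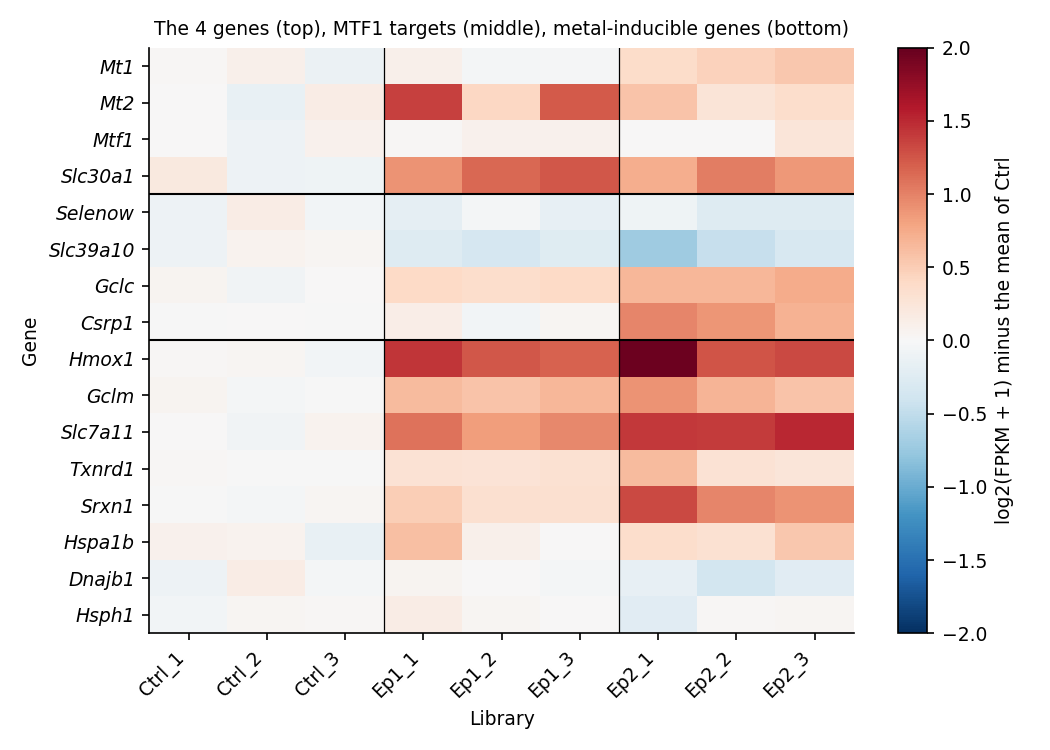
log2(FPKM + 1) minus the mean of Ctrl (colour scale from -2 to 2) in each of the 9 libraries (x axis) for the 4 genes (top block), the MTF1 target genes (middle) and other metal-inducible genes (bottom) that passed the filter (y axis). Slc30a1, Mt2, Gclc and several metal-inducible genes, Hmox1 among them, are above every Ctrl library in all 6 treated libraries. Mt2 is highest in Ep1 libraries 1 and 3. Mt1 and Csrp1 are wholly above Ctrl in the 3 Ep2 libraries but overlap Ctrl in Ep1.

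Copper, the other metal that metallothioneins bind, was read from 15 genes of copper handling, of which 12 passed the filter. In Ep1, 1 was higher, Xiap, and 2 were lower, Atox1 and Sod1, against 11.3% of all genes called. In Ep2, 3 were higher and 6 lower, against 53.2% of all genes called. Their median log2 fold change was -0.13 against -0.03. The copper importer gene Slc31a1 rose by 0.34 (limma adjusted p = 0.000139) and Xiap by 0.44 (limma adjusted p = 0.000162) in Ep2. The reductase gene Steap3 fell by 0.61 (limma adjusted p = 0.000136) and the copper chaperone gene Ccs fell by 0.54 (limma adjusted p = 0.000219). Atox1, the chaperone that serves the copper pumps, averaged 183, 149 and 131 FPKM in Ctrl, Ep1 and Ep2, with log2 fold changes of -0.29 and -0.49 (limma adjusted p = 0.0311 and 0.000345).

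The genes whose levels ran most like each of the 4 were taken by Pearson correlation of log2(FPKM + 1) over the 9 libraries, a description over libraries that share 3 group means. For Mt1 these were Trp53inp2, Kdelr1 and Marveld1 (r = 0.99 for each), which were also level in Ep1 and higher in Ep2, Marveld1 at 20.7, 20.6 and 29.2 FPKM on average in Ctrl, Ep1 and Ep2. For Slc30a1 they were Mdm2, Casc4 and Kpna1 (r = 0.97 for each), raised in both treated groups, Mdm2 at 16.8, 21.7 and 20.6 FPKM. For Mt2 they were Rpl9-ps4, Lrp12 and Rtf1 (r = 0.96, 0.95 and 0.93), with their highest mean in Ep1, Lrp12 at 5.93, 7.66 and 6.52 FPKM. For Mtf1 they were Zfp281, Ube2w and Btbd10 (r = 0.91, 0.90 and 0.89), with means highest in Ep2. No gene was shared among these 4 sets of 3.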

How the data were processed

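Per the labels, RNA of b.end3 cells was sequenced as 9 libraries, and the authors deposited 1 FPKM value for each of 54532 genes in each library, a count of fragments scaled to the length of the gene and the size of the library. The 9 single-library tables equal the joint table. The counting tool and its use of strand are not given in the sources used here. The methods name GRCm39 and the submitters' processing notes list mm8 and Bowtie 0.12.2, but the listed coordinates overlapped the GRCm38.p6 RefSeq position for 99.9% of 37620 genes and the GRCm39 position for 10.9% of 50453, so positions are given as GRCm38. FPKM times the listed gene length gave whole multiples of 1 step per library within 0.05 for 100% of values, from which fragments were recovered. They measure counting depth only.

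Genes with at least 1 FPKM in at least 3 libraries were tested on log2(FPKM + 1) with limma 3.58.1 in R 4.3.3 (1 mean per group, no covariate, robust eBayes with a variance trend). The 3 comparisons were adjusted separately by the Benjamini-Hochberg method. The exact permutation test counted assignments with a between-group sum of squares at least as large as the observed one, without regard to direction. It was run in Python 3.11.15 with numpy 2.4.6, pandas 2.3.3 and scipy 1.17.1, and figures were drawn with matplotlib 3.10.9. The fit was also run on simulated fragments as a check of the code. Few genes were changed there, in Ep2 alone, with the same spread for all genes. It therefore does not show how the fit performs on these data. Alternatives were a pseudocount of 0.1, no filter, a filter at 5 FPKM, median centring, only the groups compared, a replicate block, voom on recovered fragments (at least 10 in at least 3 libraries) and the omission of each library. Same-numbered libraries of different groups did not deviate together (correlations of -0.056 to 0.074), so the numbers were not taken as pairs.

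The 4 genes and the gene lists were chosen with earlier results of these data known. Named beside them are, per list and comparison, at most 4 called genes by smallest adjusted p, listed genes under the filter, all zinc transporters that passed it, the 3 genes most correlated with each of the 4, and genes starting within 100 kb of Mt1. Promoter sequences are from RefSeq. Protein sequences were not used here.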

Additional observations from a re-analysis of the deposited data

Results flagged for a closer look

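Mt1 responded differently to the 2 light doses. Its level in Ep2 exceeded that in Ep1 by 0.44 on the log2(FPKM + 1) scale (limma, adjusted p = 0.000685), and it was higher in 3 of 3 Ep2 libraries than in every Ep1 library, while its difference between Ep1 and Ctrl was 0.01. Of all tested genes, 18.8% were called higher in Ep2 than in Ep1. The value stayed between 0.40 and 0.48 without each library in turn.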

How the results depend on the processing

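Over the 12 differences of the 4 genes, 186 values under alternative settings were computed, of which 167 kept direction and side of the threshold, 9 lost the call, 5 gained one and 5 changed sign. Slc30a1 and, at 20 J/cm2, Mt1 kept their calls against Ctrl under every alternative that tested them, but at 5 FPKM Slc30a1 and Mtf1 were not tested. For Mt2 at 10 J/cm2 the log2 fold change stayed 1.0 while the limma adjusted p became 0.0799 with no filter and 0.0653 with only the groups compared, and without 1 library it ranged from 0.82 to 1.3. For Mt2 at 20 J/cm2 the value of 0.39 passed with only the groups compared (0.0188), and without 1 library it ranged from 0.30 to 0.46. The difference of Mt2 between the doses passed with voom (-0.67, 0.0383), and without 1 library it ranged from -0.91 to -0.43. The cause of these changes was not tested. Values near 0 changed sign, Mt1 at 10 J/cm2 with voom (-0.0027), without Ctrl replicate 3 (-0.044) and without Ep1 replicate 1 (-0.028), in a range of -0.044 to 0.064, and Mtf1 between the doses without Ep1 replicate 1 (-0.00063) and without Ep2 replicate 3 (-0.057), in a range of -0.057 to 0.057. The 0 zinc transporters called at 10 J/cm2 became 3 with only the groups compared, 1 with voom, and 0 to 3 without 1 library. The calls over all genes at 10 J/cm2 went from 1324 to 396 with no filter, 2162 with only the groups compared and 1993 with voom, and to 192 to 2192 without 1 library (192 without Ctrl replicate 2, 2192 without Ep2 replicate 1).

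With the replicate number as a block, the difference of Mt2 between the doses passed (-0.61, limma adjusted p = 0.0227). In this balanced design the block cannot change mean differences, so the log2 difference from Ctrl was 0.45 for the summed metallothioneins in Ep2 and -1.15 for the Mt1 to Mt2 ratio in Ep1. The ratio did not pass the exact permutation test with the block (p = 0.111), while it passed without the block (p = 0.0321). The level of Mt1 was 45 to 153 times that of Mt2 over the libraries, so the sum is nearly all Mt1. Its difference of 0.45 therefore repeats that of Mt1 and is no separate result. The ratio difference in Ep1 likewise repeats the change of Mt2 and is no separate result. Without 1 library the ratio difference ranged from -1.46 to -0.99 (exact permutation p = 0.0321 to 0.0679, 3 of 9 under 0.05). Depth limits Mt2 most, at 40 to 128 fragments per library.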

Other observations

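Metallothionein genes are also known to respond to glucocorticoids and to STAT3 signalling, and both gene groups are given here as values. Of 8 glucocorticoid-responsive genes 7 passed the filter. At 10 J/cm2 limma called 4 as higher (median log2 fold change 0.54 against -0.01 over all genes, 11.3% of which were called), and at 20 J/cm2 5 as higher and 1 as lower (median 0.32 against -0.03, 53.2% called). The clock gene Per1 rose by 0.70 and 0.62 (limma adjusted p = 0.00538 and 0.000297), the kinase gene Sgk1 by 0.55 in Ep1 (limma adjusted p = 0.0093), and Klf9 by 0.54 and 0.48 (limma adjusted p = 0.0118 and 0.00211). Dusp1, a phosphatase gene, was 1.15 higher in Ep1 (limma adjusted p = 0.0387). Fkbp5, a chaperone of the glucocorticoid receptor that the hormone strongly induces, fell by 0.28 in Ep2 (limma adjusted p = 0.000857), and the receptor gene Nr3c1 rose by 0.31 (limma adjusted p = 0.000736).

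Of 9 STAT3-responsive genes 8 passed the filter. At 10 J/cm2 Cebpb rose by 0.54 (limma adjusted p = 0.0168) and Bcl3 fell by 0.34 (limma adjusted p = 0.0405), with 11.3% of all genes called. At 20 J/cm2 4 of 8 were called as higher, with 53.2% of all genes called and 23.9% higher, and the median over the list was 0.26 against -0.03. These were Socs3, the feedback inhibitor of the pathway (0.34, limma adjusted p = 0.000493), Cebpb (0.57, 0.0015), Cebpd (0.34, 0.0108) and the receptor gene Il6st (0.26, 0.0136).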
